A study of Mus musculus with 10 samples.

Results

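The keratins of the lower epidermis were read in individual cells of mouse embryonic back skin, which had been dissociated with collagenase and trypsin. The group held the 6 genes Krt5, Krt14, Krt15, Krt1, Krt10 and Krt77, each found by its symbol as 1 row among the 32285 genes listed at E15.5 and E17.5 and the 27998 listed at E16.5. Their molecules were counted in 11846 epithelial cells, which were taken from 55482 cells that passed the quality limits in 10 libraries. An epithelial cell was one with at least 10 unique molecular identifiers (UMIs, each of which stands for 1 captured RNA molecule) of Epcam, Krt5, Krt14, Krt1 and Krt10 together, and under 30 UMIs of the collagen genes Col1a1 and Col3a1. These are called gated cells. Since 4 of the 6 keratins help to set the gate, the fold changes, ratios within libraries and shares of cells were also computed with a gate made of 8 epithelial genes without keratins.

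MOF cKO embryos carried MOF fl/fl with K14Cre. Mof, whose gene symbol is Kat8, encodes an acetyltransferase of histone H4 lysine 16. QPC cKO embryos carried QPC fl/fl with K14Cre, and QPC (Uqcrq) is a subunit of respiratory complex III. Controls are labelled only as control, and the study took them from wildtype or heterozygous littermates. The Cre is driven by the promoter of keratin 14, which is active in basal epithelial cells, so the deletion was made in the cells in which Krt14 itself was measured. E15.5 had 2 libraries of each kind (control replicates 2 and 3, MOF cKO replicates 5 and 6), E16.5 likewise 2 and 2 (numbered 1 and 2), and E17.5 had 1 control and 1 QPC cKO library. The study describes the second E15.5 MOF cKO embryo as having kept a part of its epithelium unrecombined. The stages were made with different versions of the 3' chemistry, so stage and chemistry cannot be told apart. Nothing in the labels says that the libraries came from separate litters, and p-values measure the spread between these libraries.

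Keratins are the intermediate filament proteins of epithelia, and a filament forms only from a type II keratin joined to a type I keratin. Krt5 (type II) and Krt14 (type I) are the pair of the basal layer, where the dividing progenitors sit. Krt15 is a further type I keratin of basal cells and is also known from the hair follicle. On leaving the basal layer, cells stop making Krt5 and Krt14 and switch to the pair Krt1 (type II) and Krt10 (type I), the classical signs of the spinous layer. Krt77 (type II), also called keratin 1b, is a keratin of late suprabasal cells in embryonic mouse skin. The 3 type II genes lie in 1 cluster on chromosome 15 and the 3 type I genes in the cluster on chromosome 11, all on the minus strand. In GRCm38 (GENCODE vM21), Krt5 lies at chr15:101707070-101712898, Krt1 at chr15:101845426-101850794 and Krt77 at chr15:101858731-101869705. Krt10 lies at chr11:99385254-99389364, Krt15 at chr11:100131758-100135928 and Krt14 at chr11:100203162-100207548.

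RefSeq promoters were at hand for 4 of the 6 genes. The 120 bases just before the start are shown for these 4, the basal pair and 2 suprabasal genes, so that the starts of basal and suprabasal members can be read side by side. They are written 5′ to 3′ in build GRCm38.p6, minus strand, in lower case with motif matches in capitals. The RefSeq start of Krt14 used here lies inside the gene span given above, which reaches to 100207548. Its window is thus not the stretch before the outer start of the gene, and it cannot be read beside the others as such.
Krt5 at chr15:101712906-101713025: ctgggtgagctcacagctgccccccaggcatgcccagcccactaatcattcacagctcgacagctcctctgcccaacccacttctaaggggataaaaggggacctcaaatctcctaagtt
Krt14 at chr11:100206031-100206150: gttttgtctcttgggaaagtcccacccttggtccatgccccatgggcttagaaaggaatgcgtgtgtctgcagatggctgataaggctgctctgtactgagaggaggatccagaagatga
Krt10 at chr11:99389365-99389484: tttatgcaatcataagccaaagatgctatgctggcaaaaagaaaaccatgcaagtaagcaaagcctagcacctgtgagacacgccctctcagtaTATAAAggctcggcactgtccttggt
Krt77 at chr15:101869706-101869825: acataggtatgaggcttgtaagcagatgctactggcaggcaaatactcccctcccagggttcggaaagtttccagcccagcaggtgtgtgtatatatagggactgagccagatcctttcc
4 motifs were searched on both strands over 250 bases before the start. TATAAA, a form of the TATA box, was found in Krt10, beginning 26 bases before the start, and in 12.4% of all 32851 promoters of that length. Only exact matches were counted, so tatatata in Krt77 and gataaaag in Krt5 were not. No lack of a TATA box is read from this. TGANTCA (AP-1, held by 6.75% of promoters), GCCNNNGGC (AP-2, 13.7%) and GGGCGG (Sp1, 32.7%) had no match in the 4 windows, which says only that these letters are not there. For Krt14 the window searched lies inside the gene span.

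The libraries held between 13609345 and 203392303 UMIs, and the median depth of gated cells ran from 12076 to 24878.5 UMIs. The gate held between 965 and 2801 cells at E15.5, 216 and 541 control cells but 31 and 37 MOF cKO cells at E16.5, and 2016 and 1214 cells at E17.5. Levels are given as UMIs per 1000000 UMIs of the gated cells of a library (CPM). In a 3' library each captured molecule gives 1 UMI whatever its length, so levels need no correction for gene length. How well each gene was captured and mapped was not tested, which limits comparison of levels between genes. The 5 epithelial markers Epcam, Cdh1, Perp, Trp63 and Dsp were present in every library, at 1908 to 3742 CPM in sum. In bulk sums of this kind, fewer cells of a type and less RNA per cell cannot be told apart. Between any pair of libraries, 0 to 4 barcodes of gated cells were shared. The deletion was checked first. Kat8 was at 13.2 and 14.01 CPM in E15.5 controls and at 13.04 and 10.4 in MOF cKO, and at 19.96 and 14.3 in E16.5 controls and 8.60 and 2.99 in MOF cKO (5 and 2 UMIs), with edgeR adjusted p = 0.973 and 0.313. These 3' reads do not say whether the floxed exons were in the counted molecules. Uqcrq was at 138.1 CPM in the E17.5 control and at 49.8 in the QPC cKO library.

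In control cells, Krt14 was the most abundant of the 6 genes in all 5 libraries, followed by Krt5. Krt14 was at 7186 and 5579 CPM at E15.5, at 10189 and 9658 at E16.5 and at 9413 at E17.5. Krt5 was at 5212 and 4321 CPM at E15.5, at 4755 and 4182 at E16.5 and at 7973 at E17.5. Krt14 thus stood higher at E16.5 than in the other stages in relation to Krt5, and the log2 ratio of Krt5 to Krt14 UMIs was -0.46 and -0.37 at E15.5 and -1.10 and -1.21 at E16.5. Krt15 was at 3302 and 3057 CPM at E15.5, 3304 and 3996 at E16.5 and 3467 at E17.5, the narrowest range over the control libraries of the 6 genes as a ratio of highest to lowest. The 2 E15.5 controls differed most in the suprabasal pair. Krt1 was at 321.5 CPM in control replicate 2 and at 1185 in replicate 3, and Krt10 at 577 and 1872. At E16.5, Krt1 was at 1999.9 and 1496 CPM and Krt10 at 3327 and 2422, so Krt10 exceeded Krt1 in all 4 of these libraries. Krt77 was the lowest, at 8.37 and 21.5 CPM at E15.5, at 176.5 and 149.1 at E16.5 and at 0.662 in the E17.5 control (31 UMIs). Loricrin (Lor), the cornified envelope protein of the granular layer, was likewise at 10290 and 3431 CPM in E16.5 controls, and at 5.90 in the control and 8.05 in the QPC cKO library at E17.5. Both E17.5 libraries therefore held few UMIs of either late gene.

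**Figure D1:**
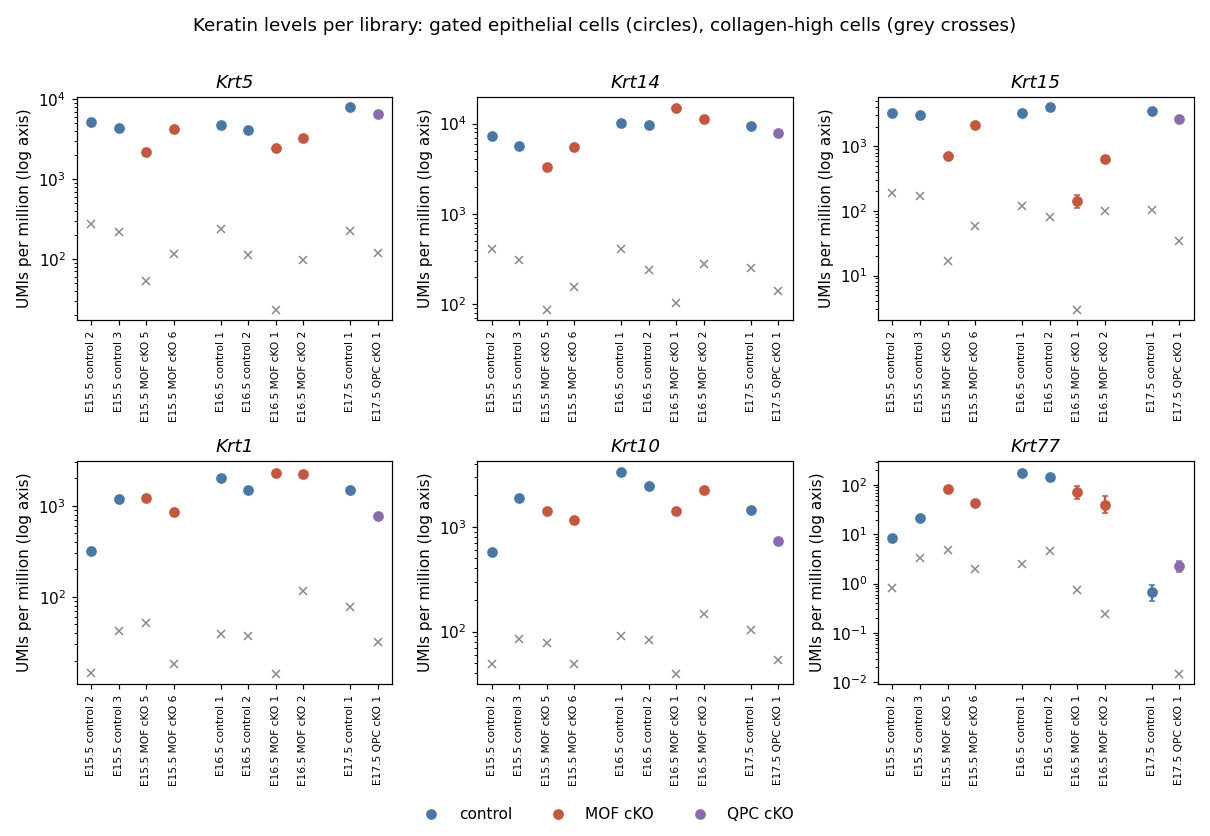
Level of each keratin in CPM (log axis) in the gated epithelial cells of each library, as circles with exact 95% Poisson intervals (counting error only, mostly smaller than the symbol), and in collagen-high cells of the same library as grey crosses. Krt15 is lower in each MOF cKO library than in the controls of its stage, and Krt77 is higher in MOF cKO at E15.5 and lower at E16.5; Krt77 was at 0 in the collagen-high cells of the E17.5 control and has no cross there.

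Free RNA gives UMIs in cells that do not make a gene, so the same genes were read in collagen-high cells, which should lack them. There Krt14 was at 87.1 to 409.6 CPM, Krt5 at 23.2 to 272 and Krt15 at 2.96 to 191.1. Krt1 was at 14.4 to 116 CPM, Krt10 at 39.7 to 146.1 and Krt77 at 0 to 4.85. Gated cells of the same library held more in each case. For Krt5, Krt14, Krt1 and Krt10, whose UMIs the gate counts, this could follow from the gate alone. In the gate without keratins, their lowest levels over the libraries were 2182, 3306, 322 and 578.2 CPM. The Krt15 level of E16.5 MOF cKO replicate 1, 141.0 CPM, lay within the range seen in collagen-high cells of the series and above the 2.96 CPM of the collagen-high cells of its own library.

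At E15.5 the basal keratins were lower and Krt77 higher in both MOF cKO libraries than in both controls, but no difference passed the test. Krt15 was at 3302 and 3057 CPM in control and at 704.7 and 2144 in MOF cKO. Its log2 fold change was -1.07 ± 0.44 (SE, 2 against 2 libraries, edgeR quasi-likelihood test, adjusted p = 0.555). Krt5 was at 5212 and 4321 CPM in control and 2186 and 4239 in MOF cKO (log2 fold change -0.44 ± 0.28, adjusted p = 0.558). Krt14 was at 7186 and 5579 CPM in control and 3314 and 5494 in MOF cKO (-0.40 ± 0.25, adjusted p = 0.560). For Krt5 and Krt14, MOF cKO replicate 6 lay just below the lower control, and replicate 5 was far below it for all 3 genes. For Krt1 and Krt10 the groups overlapped. Krt1 was at 1203 and 861 CPM in MOF cKO, where replicate 5 lay just above the higher control. Krt10 was at 1401 and 1165 CPM, between the 2 controls. Krt77 was at 8.37 and 21.5 CPM in control and 81.7 and 44.2 in MOF cKO (log2 fold change 2.29 ± 0.64, adjusted p = 0.555).

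edgeR thus called 0 of the 6 keratins at E15.5, and 0% of the 14287 genes tested. At an unadjusted p under 0.05 it picked 1 of the 6 (Krt77) and 7.91% of all genes. DESeq2 called Krt77 (adjusted p = 0.00482) and 0.707% of genes. Without MOF cKO replicate 6, the embryo that the study describes as mosaic, 4 of the 6 passed the edgeR test, beside 43.8% of all genes, with MOF cKO replicate 5 alone taken to vary like the controls. Krt5 then fell by 0.80 on the log2 scale, Krt14 fell by 0.62 and Krt15 fell by 1.85, and Krt77 rose by 2.76.

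At E16.5 edgeR called no keratin in gated cells, and the fold change of Krt15 was the largest in size of the 6. Krt15 was at 3304 and 3996 CPM in control and at 141.0 and 645.0 in MOF cKO. Both MOF cKO libraries lay far below both controls, and replicate 1 held 82 UMIs of Krt15 in all its gated cells. After thinning to 3000 UMIs a cell, a UMI of Krt15 was found in 84.0% and 88.4% of control cells and in 9.68% and 35.1% of MOF cKO cells, and in 22.5%, 20.1%, 1.35% and 2.56% of the collagen-high cells of the same libraries. Unthinned, the share of gated cells was 92.6% and 95.01% in control and 25.8% and 51.4% in MOF cKO. The log2 fold change was -2.75 ± 0.66 (edgeR, adjusted p = 0.0870). Leaving out 1 library moved it between -2.10 (without MOF cKO replicate 1) and -4.07 (without MOF cKO replicate 2). Krt14 was higher in both MOF cKO libraries, with 10189 and 9658 CPM in control and 14883 and 11197 in MOF cKO (log2 fold change 0.97 ± 0.37, adjusted p = 0.169). Its partner Krt5 was at 4755 and 4182 CPM in control and 2491 and 3316 in MOF cKO (-0.08 ± 0.29, adjusted p = 0.883). The CPM of Krt5 were lower in both MOF cKO libraries while its fold change was near 0, because the TMM scaling moved the libraries against each other. By library size alone the log2 fold change of Krt5 was -0.63, and the median of all genes moved from -0.05 to -0.61. Changes at E16.5 are therefore given relative to the TMM scale.

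Of the suprabasal pair, Krt1 was higher and Krt10 lower in CPM before TMM scaling in both MOF cKO libraries at E16.5. Neither passed the test. Krt1 was at 1999.9 and 1496 CPM in control and 2273 and 2235 in MOF cKO (log2 fold change 0.94 ± 0.30, adjusted p = 0.128). Krt10 was at 3327 and 2422 CPM in control and 1425 and 2229 in MOF cKO (-0.11 ± 0.31, adjusted p = 0.845). Krt77 was at 176.5 and 149.1 CPM in control and at 72.2 and 40.3 in MOF cKO, which is 42 and 27 UMIs (-0.96 ± 0.39, adjusted p = 0.190). In CPM before TMM scaling the groups were apart for Krt5 and Krt10 too, yet both genes were near level on the TMM scale. Separation in unscaled CPM is therefore not read as a difference. By library size alone the genes tested at E16.5 centred on a log2 value of -0.61, below 0. The share of all genes without overlap was not counted.

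None of the 6 genes was called at E16.5 by edgeR at an adjusted p under 0.05, beside 0.858% of the 9328 genes tested. At an unadjusted p under 0.05 edgeR picked 4 (Krt14, Krt15, Krt1 and Krt77) and 26.3% of all genes, and DESeq2 called Krt15 (adjusted p = 0.00105) and Krt1 (0.0477), beside 6.2% of genes. With same-numbered libraries paired in the edgeR fit (replicate block) Krt15 passed, beside 3.96% of genes. Whether the numbers pair the libraries is undecided. Krt15 passed in edgeR too with the gate without keratins (adjusted p = 0.0180), where the log2 fold change was -2.52 and 6.46% of genes were called. Over all alternatives its adjusted p ran from 5.88e-10 with no filter on low counts to 0.248 without MOF cKO replicate 1. The MOF cKO libraries held 31 and 37 gated cells, and this limits each value of theirs.

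**Figure D2:**
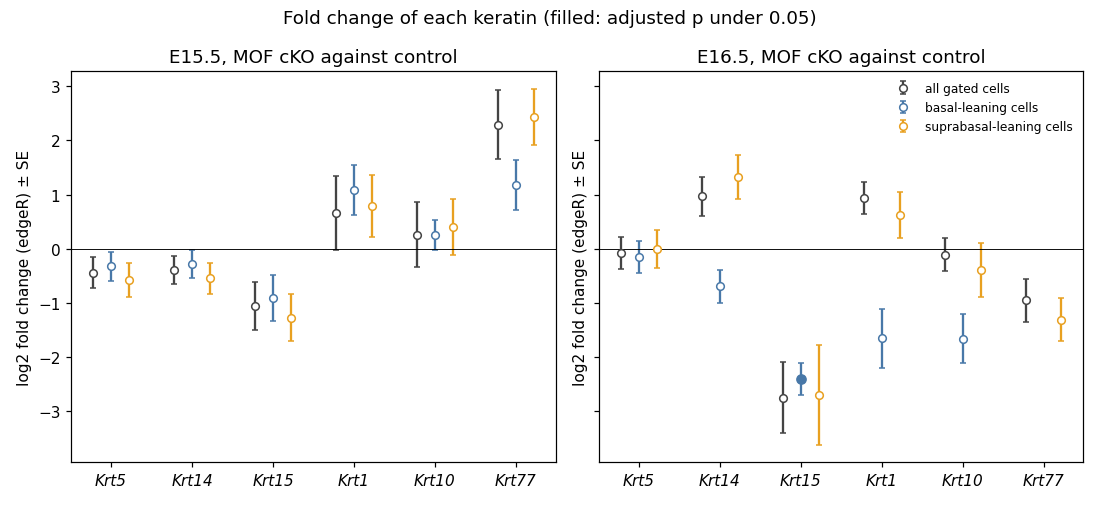
Log2 fold change of each keratin in MOF cKO against control (edgeR, points) with its standard error (bars) in all gated cells, in basal-leaning and in suprabasal-leaning cells at E15.5 (left) and E16.5 (right); filled points passed an adjusted p under 0.05. The filled point is Krt15 in basal-leaning cells at E16.5, and Krt14 at E16.5 lies above 0 in suprabasal-leaning and below 0 in basal-leaning cells; Krt77 was not tested in basal-leaning cells at E16.5.

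To set the layers apart without the 6 keratins, each gated cell was thinned to 3000 UMIs and scored by the UMIs of 9 suprabasal genes (such as Krtdap, Sbsn and Lor) against those of 12 basal genes (such as Itga6, Col17a1 and Trp63). Cells with more of the basal genes are called basal-leaning and the others suprabasal-leaning. The score is a range rather than a cell type. As medians over the 10 libraries, Krt1 was at 37.0 CPM in basal-leaning and 2848 in suprabasal-leaning cells. Krt14 was at 5967 and 8517 and Krt5 at 4168 and 4440, so suprabasal-leaning cells held the basal pair too. Lor, a gene of the score, was itself called lower in MOF cKO at E16.5. Whether the limit parted both groups alike was not tested. Between 16.1% and 51.6% of gated cells lay within 1 log2 unit of the limit. At E16.5 the control libraries held 119 and 131 basal-leaning and 94 and 410 suprabasal-leaning cells. The MOF cKO libraries held 6 and 12 basal-leaning and 25 and 25 suprabasal-leaning cells.

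Krt15 fell in basal-leaning cells of MOF cKO at E16.5. It was at 3497 and 2512 CPM in control and at 385.4 and 453.2 in MOF cKO, with 42 and 128 UMIs behind the latter. The log2 fold change was -2.41 ± 0.29 (edgeR, adjusted p = 0.00828), the 1 call among 5 keratins tested, beside 0.754% of the 7429 genes tested there and 0.121% called lower. The call was lost without either MOF cKO library (adjusted p = 0.261 and 0.232, with 0% and 0.0102% of genes called) and with a limit of 5% on mitochondrial UMIs (0.0828, with 0.0854% called). Markers of other cells were read in the same basal-leaning cells, and their part in the Krt15 result was not tested. Of 5 hair germ markers 1 was called lower (Lhx2, named after its value was seen) and 3 were lower at an unadjusted p under 0.05, as were 4 of 5 endothelial and 3 of 4 erythroid markers, where 20.3% of all genes passed. The hair germ markers summed to 322.7 to 329.6 CPM in control and 116.8 to 128.5 in MOF cKO, with Lhx2 and Shh at 0 in both MOF cKO libraries. The endothelial sum was 209.4 to 222.2 CPM against 21.2 to 36.7, and the erythroid sum 3988 to 29080 against 2379 to 5790. By the same limit, 3 of 6 tested dermal fibroblast markers were higher and 1 lower, and 2 of 4 immune markers and the 1 Merkel marker tested were higher. The dermal fibroblast sum was 1792 to 1965 CPM in control and 1239 to 1590 in MOF cKO, the immune sum 38.6 to 517.4 against 156 to 1275 and the Merkel sum 7.92 to 11.5 against 17.7 to 27.5. No melanocyte marker was tested there, and their sum was 8.27 to 547.8 CPM in control and 0 to 3.54 in MOF cKO. In suprabasal-leaning cells Krt15 was at 3031 and 4527 CPM in control and at 84.6 and 784.8 in MOF cKO (-2.70 ± 0.92, adjusted p = 0.154, and from -4.87 to -1.86 with 1 library left out). The E15.5 log2 fold changes of Krt15 were -0.91 ± 0.43 in basal-leaning and -1.28 ± 0.44 in suprabasal-leaning cells (edgeR adjusted p = 0.536 and 0.571).

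For Krt14 at E16.5, the MOF cKO libraries lay above the controls in suprabasal-leaning cells and below them in basal-leaning cells, and edgeR called neither. In suprabasal-leaning cells it was at 8646 and 10864 CPM in control and at 17265 and 16721 in MOF cKO (log2 fold change 1.33 ± 0.41, adjusted p = 0.130). In basal-leaning cells it was at 11414 and 6285 CPM in control and at 4551 and 3622 in MOF cKO (-0.69 ± 0.31, adjusted p = 0.240). The groups did not overlap in either layer, and the difference between the layers was not tested. DESeq2 called Krt14 in suprabasal-leaning cells (adjusted p = 0.0195). Krt5 was at 2454 and 3741 CPM in suprabasal-leaning MOF cKO cells against 4253 and 4634 in control (-0.01 ± 0.35, adjusted p = 0.985).

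Krt1 and Krt10 were low in basal-leaning cells of every library. At E16.5, Krt1 was at 50.9 and 57.4 CPM in basal-leaning control cells and rested on 2 and 3 UMIs in MOF cKO. In suprabasal-leaning cells Krt1 was at 4330 and 2011 CPM in control and at 2792 and 3857 in MOF cKO, and Krt10 at 7298 and 3252 against 1752 and 3831. For both genes the groups overlapped there. Krt77 in suprabasal-leaning cells was at 390.3 and 202.2 CPM in control and at 88.8 and 69.7 in MOF cKO at E16.5 (-1.32 ± 0.40, adjusted p = 0.128). The E15.5 values were 21.1 and 46.9 CPM in control and 198.5 and 123.9 CPM in MOF cKO (2.44 ± 0.52, adjusted p = 0.571). In suprabasal-leaning cells edgeR called 0 of 6 keratins at either stage, beside 0% of 12437 genes at E15.5 and 1.59% of 7164 genes at E16.5. At an unadjusted p under 0.05 the counts were 2 and 3, beside 7.73% and 25.4% of genes, and DESeq2 called 1 and 2, beside 0.555% and 6.23%.

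An interaction term over 8 libraries asked whether the MOF cKO effect differed from E15.5 to E16.5. edgeR called 0 of 6 keratins, and 0.015% of 13376 genes. At an unadjusted p under 0.05 it picked 2 keratins and 13% of genes, Krt77 (log2 difference between the stages -3.37 ± 0.80, adjusted p = 0.263) and Krt14 (1.25 ± 0.47, adjusted p = 0.341). DESeq2 called Krt77 (adjusted p = 0.0108) and 1.91% of genes. For the remaining 4 genes the difference ran from -1.77 ± 0.87 in Krt15 to 0.26 ± 0.41 in Krt5.

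Ratios between genes within a library do not depend on how libraries are scaled. Their test was an exact permutation, two-sided, with labels exchanged among libraries of a stage, in which 2 against 2 libraries cannot give a p below 0.333 and both stages together cannot go below 0.0556. In all, 10 ratios and shares were compared, of which 4 were added after seeing the data, and no p was under 0.05, which an adjustment over the 10 can only raise. The log2 ratio of Krt15 to Krt5 UMIs, added after seeing the data, was -0.66 and -0.50 in E15.5 controls and -1.63 and -0.98 in MOF cKO. At E16.5 it was -0.53 and -0.07 in control and -4.14 and -2.36 in MOF cKO. MOF cKO lay below control in 4 of 4 libraries, and the mean difference over both stages was -1.84 (exact permutation p = 0.0556, the smallest possible). MOF cKO was lower within each layer too, with -2.78 and -2.59 in basal-leaning MOF cKO cells at E16.5 against -0.56 and -0.22 in control. This ratio does not change with the scaling of the libraries.

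Within the basal pair, the log2 ratio of Krt5 to Krt14 overlapped between the groups at E15.5, with -0.46 and -0.37 in control and -0.60 and -0.37 in MOF cKO. At E16.5 it was -1.10 and -1.21 in control and -2.58 and -1.76 in MOF cKO (exact permutation p = 0.333 at E16.5 and 0.111 over both stages). In suprabasal-leaning cells the ratio was -2.82 and -2.16 against -1.02 and -1.23. In basal-leaning cells it was higher in MOF cKO, with -0.78 and -0.41 in MOF cKO and -1.15 and -1.11 in control.

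Within the suprabasal pair, the log2 ratio of Krt1 to Krt10 was higher in MOF cKO at both stages. It was -0.84 and -0.66 in E15.5 controls and -0.22 and -0.44 in MOF cKO, and -0.73 and -0.69 in E16.5 controls and 0.67 and 0.0039 in MOF cKO. All 4 MOF cKO libraries lay above their controls, by 0.74 on average over both stages (exact permutation p = 0.0556). Suprabasal-leaning cells gave nearly the same values. The ratio of the suprabasal pair to the basal pair, a measure of how far the gated cells had gone in the switch of keratins, overlapped between the groups at both stages. Its log2 values were -3.79 and -1.70 in control and -1.08 and -2.26 in MOF cKO at E15.5, and -1.49 and -1.82 against -2.23 and -1.70 at E16.5.

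Keratins other than these 6 were counted too, from a list of 14 (Krt6a, Krt6b, Krt16, Krt17, Krt8 and others). At E16.5, 2 of the 10 tested were called higher in MOF cKO and 0 lower, beside 0.815% and 0.0429% of all genes tested, with a median log2 fold change of 0.44 beside -0.05 over all genes. Krt16, a type I keratin of stressed and wounded epidermis, was at 39.2 and 14.2 CPM in control and 14345 and 6209 in MOF cKO (adjusted p = 0.0217). Krt6b, a type II partner of it, was at 0.350 and 0.912 CPM in control and 8965 and 4895 in MOF cKO (adjusted p = 0.0103). Krt6a was at 6.66 and 67.1 CPM in control and 8263 and 3831 in MOF cKO (adjusted p = 0.0583). At E15.5 none of 12 was called, and MOF cKO replicate 5 held 196.9 CPM of Krt6a where replicate 6 held 2.12 and the controls 1.59 and 1.18.

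With these counted in, the balance of type II to type I keratins was also compared, as a measure added after seeing the data. Over 12 type II and 8 type I genes, its log2 value was -1.09 and -1.01 in E15.5 controls and -0.82 and -0.85 in MOF cKO. At E16.5 it was -1.37 and -1.50 in control and -0.69 and -0.66 in MOF cKO (difference over both stages 0.49, exact permutation p = 0.0556). The balance of the listed keratins was thus higher on the type II side in 4 of 4 MOF cKO libraries, while the ratio of Krt5 to Krt14 was lower or overlapping. Krt15, lower in each MOF cKO library, is among the 8 type I genes. The balance was not computed without Krt15, and the part of Krt15 in it was not tested. Krt8 and Krt18, which Merkel cells make too, are part of these lists.

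**Figure D3:**
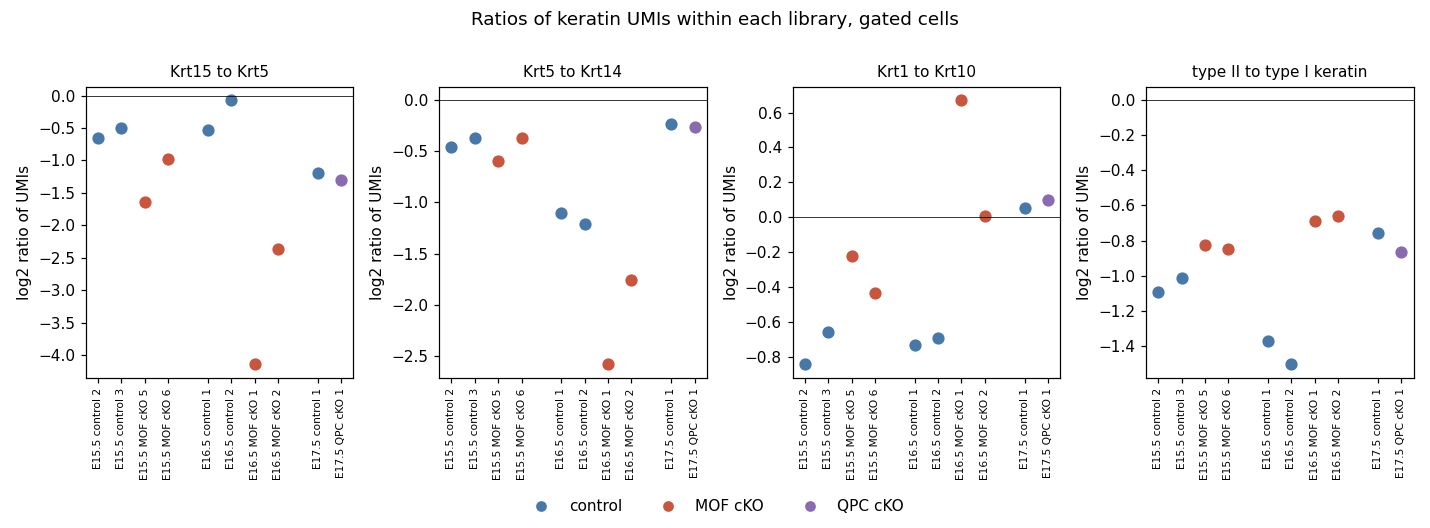
Log2 ratio of UMIs within each library over gated cells, 1 point per library, for Krt15 to Krt5, Krt5 to Krt14, Krt1 to Krt10 and all listed type II to type I keratins. MOF cKO points lie below the controls of their stage for Krt15 to Krt5 and above them in the ratios of Krt1 to Krt10 and of type II to type I, and the Krt5 to Krt14 ratio separates the groups at E16.5 only.

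Co-expression was then read cell by cell, after thinning each cell to 3000 UMIs so that deep and shallow cells could be compared. A cell was taken to hold a pair at 5 or more UMIs of Krt5 and Krt14 together, or of Krt1 and Krt10 together, and 0 to 8 cells a library were too shallow to enter. Either gene of a pair alone could reach this number, as Krt14 could without Krt5. How many of the cells with a pair held both of its genes was not counted. Most gated cells held the basal pair only. These were 92.4% and 86.2% of cells in E15.5 controls and 82.0% and 87.9% in MOF cKO, where the groups overlapped. At E16.5 they were 71.8% and 81.3% in control and 70.97% and 64.9% in MOF cKO.

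Cells with both pairs at once took a larger share in each MOF cKO library than in the controls of its stage. The E15.5 controls had 4.38% (95% Wilson interval 3.65 to 5.26) and 6.62% (5.76 to 7.601), and MOF cKO had 8.21% (6.64 to 10.1) and 7.12% (5.94 to 8.52). At E16.5 they were 8.45% (5.41 to 12.96, 18 of 213 cells) and 6.29% (4.53 to 8.65, 34 of 541) in control. In MOF cKO they were 25.8% (13.7 to 43.25, 8 of 31) and 32.4% (19.6 to 48.5, 12 of 37). Set against control, the MOF cKO mean was higher by 2.17 percentage points at E15.5 and by 21.75 at E16.5, and 4 of 4 MOF cKO libraries lay above their controls (mean difference over both stages 11.96, exact permutation p = 0.0556, the smallest possible). Intervals cover counting error only. Unthinned, the shares at E15.5 were 8.92% and 15.49% in control and 16.4% and 15.8% in MOF cKO, and those at E16.5 were 20.8% and 18.1% in control and 32.3% and 37.8% in MOF cKO. In collagen-high cells they were between 0% and 0.276% over the 10 libraries, with the 5 or more UMIs asked for.

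Cells that held the suprabasal pair without the basal pair were 1.05% and 4.72% in E15.5 controls and 7.28% and 3.79% in MOF cKO. At E16.5 they were 4.69% and 7.21% in control and 3.23% (1 cell) and 0% in MOF cKO. The 0 of 37 cells allows a share of up to 8.11%. Read from the other side, and added after seeing the data, 18 of 28 and 34 of 73 control cells with the suprabasal pair also held the basal pair at E16.5. In MOF cKO these were 8 of 9 and 12 of 12. At E15.5 the same shares overlapped between the groups, at 80.7% and 58.4% in control and 53.0% and 65.3% in MOF cKO.

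The other genes of the cells with both pairs were read next, without a test. At E16.5 these cells held 3519 and 7069 CPM of Krt15 in control and 0 and 889 in MOF cKO, after thinning. Krt6a was at 6.91 and 4.04 CPM in these cells in control and at 16740 and 10130 in MOF cKO. At least 2 UMIs of the cycling genes were found in 38.9% and 41.2% of them in control, and in 0 of 8 and 8.33% of 12 cells in MOF cKO. The suprabasal gene list was at 22190 and 6039 CPM in control and 16710 and 8778 in MOF cKO. Cells with the suprabasal pair only, in the E16.5 controls, held 2100 and 2316 CPM of Krt77 after thinning and 132100 and 58370 of Lor. At E15.5 such cells held 1513 and 522.7 CPM of Krt77 in control and 1000 and 1080 in MOF cKO. The groups thus overlapped for Krt77 in these cells at E15.5.

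**Figure D4:**
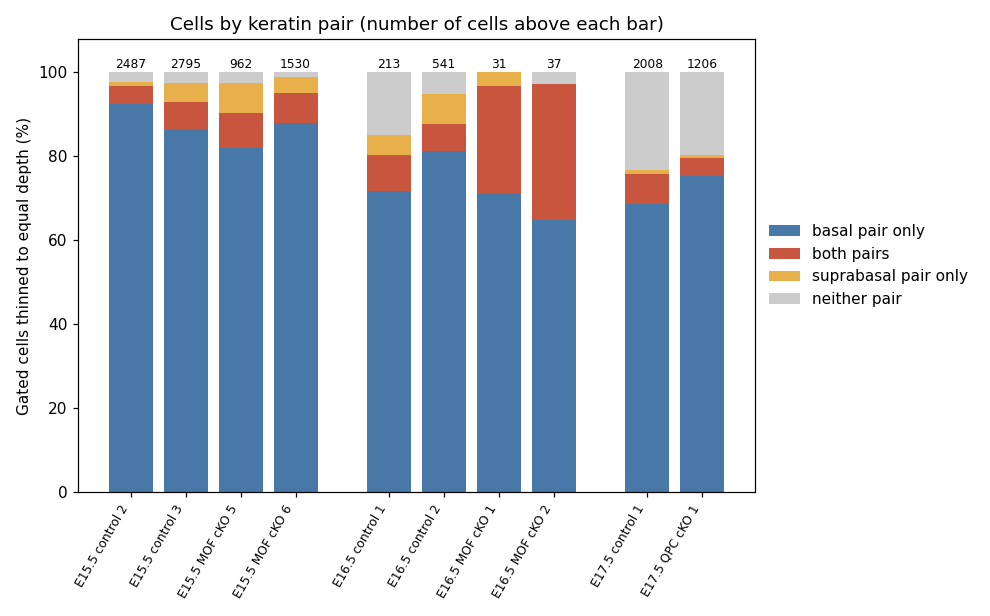
Share of gated cells (percent, stacked to 100) that held the basal pair only, both pairs, the suprabasal pair only or neither, in each library, with the number of cells thinned to 3000 UMIs above each bar. A pair is 5 or more UMIs of its genes in sum, which either gene alone can reach. Cells with both pairs make up 25.8% and 32.4% in E16.5 MOF cKO and 4.23% to 8.45% in the other libraries.

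Across the gated cells of a library, the basal pair went together in the controls. Spearman's rho of Krt5 and Krt14 over thinned cells was between 0.679 and 0.894 in the 5 control libraries, and 0.480 and 0.716 in E15.5 MOF cKO. In E16.5 MOF cKO it was -0.0275 and -0.0198, over 31 and 37 cells. Krt14 instead went with Krt1 there, at 0.440 and 0.450, where the controls ranged from -0.225 to 0.0646. Krt5 and Krt1 were at -0.466 and -0.355 in E16.5 MOF cKO and between -0.124 and 0.110 in control. Krt1 and Krt10 were at 0.898 and 0.940 in E16.5 MOF cKO, 0.808 and 0.665 in E15.5 MOF cKO and between 0.327 and 0.585 in control. The cells of a library share its depth and its free RNA, and the values are descriptions without a test.

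**Figure D5:**
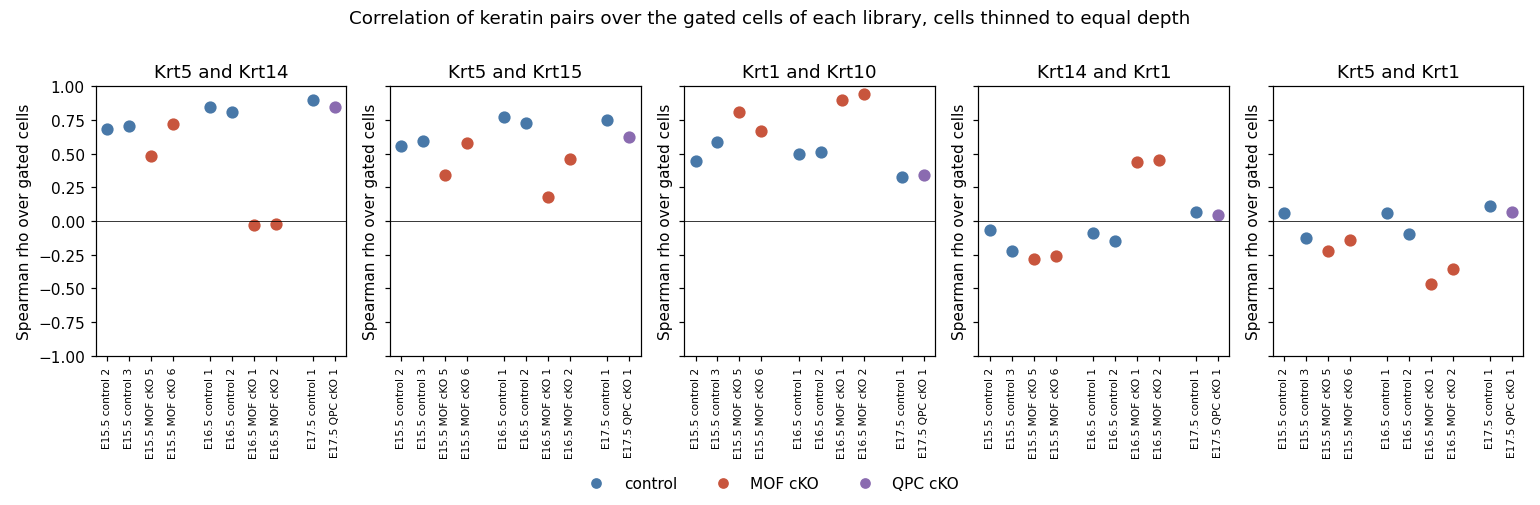
Spearman's rho of pairs of keratins over the gated cells of each library, 1 point per library, after thinning to 3000 UMIs (31 to 2795 cells). Krt5 and Krt14 lie near 0 and Krt14 and Krt1 above 0.4 in the 2 E16.5 MOF cKO libraries only, among the 10 shown.

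Leaving out the 6 keratins themselves, the genes most like each were sought among 7202 genes detected in at least 10% of gated cells of all 5 control libraries, by the mean Pearson correlation of log-normalised UMIs. For Krt1 and Krt10 the first was Ly6d, with means of 0.807 (0.695 to 0.905 over the libraries) and 0.799 (0.682 to 0.893). Lgals3, Them5 and Rab25 were also among the first 5 of both, with Lypd3 in the list of Krt1 and suprabasin (Sbsn) in that of Krt10. For Krt5 and Krt14 the first was Lmo1, at 0.594 (0.388 to 0.780) and 0.587 (0.397 to 0.792), followed by Lgals7, Ass1, Hmgn1 and S100a10 for Krt5 and by Ass1, Igfbp2, Cxcl14 and Wls for Krt14. For Krt15 they were Lgals7 (0.546, from 0.321 to 0.784), Anxa2, Lmo1, Wnt4 and H19. For Krt77 they were Lor (0.666, from 0.0299 to 0.853), Ggct, Glrx, Them5 and Sbsn, with the low end in the E17.5 control, where Krt77 had 31 UMIs.

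Other genes of keratin biology were counted by list. Of 15 regulators of epidermal keratin genes, 0 were called at either stage. At E16.5, 6 were higher at an unadjusted p under 0.05, which 26.3% of all genes passed in either direction, with a median log2 fold change of 0.55 beside -0.05 over all genes. Trp63, the master regulator of stratified epithelium, was at 231.5 and 201.2 CPM in control and 92.8 and 161.2 in MOF cKO (adjusted p = 0.635). Klf4, a factor of terminal differentiation, was at 160.4 and 109.9 CPM in control and 183.9 and 229.9 in MOF cKO (adjusted p = 0.0848). Of 13 tested genes for proteins that tie keratins to desmosomes and hemidesmosomes, 1 was called higher at E16.5 and 0 lower. The shares of all genes were 0.815% and 0.0429%. The called gene was Dsc2 (edgeR adjusted p = 0.0420, named after its value was seen), and the median of the 13 was 1.19. At an unadjusted p under 0.05, 10 of the 13 were higher and 0 lower, beside the same 26.3%. Desmoplakin (Dsp) was at 305.1 and 232.6 CPM in control and 526.0 and 403.1 in MOF cKO (adjusted p = 0.0870). At E15.5 0 of 14 were called, and the median was 0.10. Of 10 cycling genes, 0 were called at E16.5 and 7 were lower at an unadjusted p under 0.05, beside the same 26.3%, with a median of -1.39. The lists behind the layers held 12 basal genes, with 0 calls and a median of 0.44 at E16.5, and 9 suprabasal genes. Of 7 of the latter tested, 1 was called lower, beside 0.0429% of all genes (Lor, 10290 and 3431 CPM in control, 56.7 and 28.4 in MOF cKO, adjusted p = 0.0313).

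Markers of other cells were read in the same gated cells at E16.5, and their part in the keratin results was not tested. The counts that follow are at an unadjusted p under 0.05, which 26.3% of all genes passed there. Of 5 hair germ markers 3 were lower, at 202.5 to 223.1 CPM in sum in control and 55.0 to 98.5 in MOF cKO, with Shh at 0 in both MOF cKO libraries and Lhx2 in 1. Of 5 endothelial markers 4 were lower, at 82.6 to 130.3 CPM in control and 17.9 to 24.1 in MOF cKO, with Cldn5 or Kdr at 0. Of 4 melanocyte markers 2 were tested and 1 was lower, at 24.2 to 181.2 CPM in control and 1.72 to 4.48 in MOF cKO, with Dct, Mlana and Tyrp1 at 0. Of 7 dermal fibroblast markers 3 were higher and 1 lower in the same way, at 1458 to 1678 CPM in control and 888.7 to 1369 in MOF cKO. Of 5 immune markers 4 were tested and 0 passed, at 38.7 to 531 CPM in control and 108.3 to 1653 in MOF cKO. The 4 erythroid markers had 0 of 4 past it, at 5446 to 23220 CPM in control and 2638 to 6592 in MOF cKO, and of 5 Merkel markers 1 was tested and did not pass, at 9.46 to 27.1 against 6.88 to 7.47 CPM. At E15.5, 4 of 7 dermal fibroblast markers (median log2 fold change 0.72) and 2 of 5 endothelial markers (1.21) were higher in the same way, and 2 of 5 hair germ markers (-0.45) and 2 of 4 tested Merkel markers (-1.33) were lower, beside 7.91% of all genes, and 0 immune, melanocyte and erythroid markers passed. The sums of these lists overlapped between the groups, except for Merkel markers, at 16.7 to 22.03 CPM in control and 7.47 to 7.56 in MOF cKO, and hair germ markers, at 275.1 to 307.4 and 222.6 to 254.0 CPM.

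At E17.5 each group was 1 library, so values are given without a test or a replicate check. All 5 abundant keratins were lower in the QPC cKO library. Krt1 was at 1482 CPM in control (exact 95% Poisson interval 1471 to 1493) and 776.9 in QPC cKO (766.8 to 787.0), and Krt10 at 1431 (1420 to 1442) and 724.3 (714.6 to 734.1). Their log2 ratios of CPM + 1 were -0.93 and -0.98. Krt5 was at 7973 and 6489 CPM, Krt14 at 9413 and 7823 and Krt15 at 3467 and 2621, with log2 ratios of -0.30, -0.27 and -0.40. Krt77 was at 0.662 and 2.25 CPM from 31 and 66 UMIs, and its log2 ratio without a pseudocount was 1.77 (counting interval 1.13 to 2.43). The suprabasal pair was thus lower by more than the basal pair.

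None of the 5 abundant keratins reached a 2-fold ratio in gated cells, and Krt77 had too few UMIs to be counted, beside 6.6% of the 12250 genes that had 100 or more UMIs in 1 of the libraries (5.47% lower). With the gate without keratins, Krt1 (log2 ratio -1.24) and Krt10 (-1.29) did, beside 4.52% of 11207 genes in either direction and 0.714% lower. At this stage 440 control and 198 QPC cKO cells had passed the gate with only 10 to 19 UMIs, and 1564 of 2016 control cells also passed the gate without keratins. Cells with neither pair were 23.4% of gated cells in control and 19.6% in QPC cKO after thinning. In the gate without keratins Krt5 was at 9972 and 6528 CPM (log2 ratio -0.61), Krt14 at 11780 and 7871 (-0.58) and Krt15 at 4339 and 2641 (-0.72).

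Between the layers at E17.5, the suprabasal pair stood above background in suprabasal-leaning cells. In basal-leaning cells Krt1 was at 101.8 CPM in control and 43.9 in QPC cKO, beside 77.5 and 32.3 in collagen-high cells of the same libraries, and Krt10 was at 114.6 and 63.7 beside 103.0 and 53.3, so no difference was read from them there. In suprabasal-leaning cells (470 control and 241 QPC cKO) Krt1 was at 5585 and 3520 CPM and Krt10 at 5346 and 3195, with log2 ratios of -0.67 and -0.74. Krt5 and Krt14 were nearly level there, at 8208 and 7751 CPM (-0.08) and at 8979 and 8388 (-0.10). The ratios within the pairs differed little, with Krt5 to Krt14 at -0.24 and -0.27 and Krt1 to Krt10 at 0.05 and 0.10 on the log2 scale. Cells with both pairs were 7.12% (6.08 to 8.33) in control and 4.23% (3.23 to 5.52) in QPC cKO, and 143 of 159 and 51 of 61 cells with the suprabasal pair held the basal pair too. Of 9 other keratins with at least 100 UMIs, 4 were 2-fold higher in QPC cKO and 1 lower, beside 1.13% and 5.47% of genes. With the gate without keratins 4 of 8 were higher and 0 lower, beside 3.8% and 0.714% of genes. The lower one, Krt4 (named after its value was seen), had 200 UMIs in gated control cells and 6 in QPC cKO, and 8 and 6 with that gate. Krt17, the highest of them, was at 1827 CPM in control and 2356 in QPC cKO. Krt8 was at 9.21 and 71.6 CPM, beside Merkel markers (Krt8 and Krt18 among them) at 22.6 and 152.7 CPM in sum, and the part of Merkel cells in it was not tested. Among the other marker sums, endothelial markers were at 69.7 CPM in control and 26.5 in QPC cKO, immune markers at 493.7 and 133.6, dermal fibroblast markers at 1708 and 1330 and erythroid markers at 5.72 and 4.78. Melanocyte markers were at 468.5 and 883 CPM and hair germ markers at 364.4 and 489.5, and the part of these cells in the keratin values was not tested.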

How the data were processed

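Back skin was profiled by 10x Genomics 3' single-cell RNA-seq. The deposited values are UMI counts per gene and cell, which the authors made with Cell Ranger on mm10, with versions 1.3.1 and 6.1.2 in the submitters' processing notes. Cells with over 1000 and under 6000 genes and under 10% mitochondrial UMIs were kept, and doublets were not removed. Counts of gated cells were summed per library and tested with edgeR 4.0.16 (quasi-likelihood, filterByExpr, TMM, Benjamini-Hochberg over all genes, adjusted p under 0.05), with 1 fit per stage. DESeq2 1.42.0 was an alternative. Exact permutation tests over libraries went through every exchange of labels within a stage, with numpy 2.4.6. E17.5 values carry exact Poisson intervals at 95%, made with SciPy 1.17.1. The layer score was log2 of suprabasal over basal list UMIs, each plus 1, in cells thinned to 3000 UMIs. CPM ratios at E17.5 used a pseudocount of 1.

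The text names the 6 keratins, at most 3 genes of highest mean CPM per list, and the 5 genes most like each keratin. Members and lists were chosen with earlier results of these data known. On simulated data with 2-fold changes in 200 genes, the edgeR step recovered 3.21% of changed genes at E15.5 (14366 genes) and 0.8% at E16.5 (9092 genes) in gated cells, with 0 and 3 false calls beside 5 and 1 true calls. Alternatives covered scaling, filters, gates, thinning, pair thresholds, the replicate block and leaving out each library.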

Additional observations from a re-analysis of the deposited data

Results flagged for a closer look

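Krt14 and Krt77 of MOF cKO lay on opposite sides of the controls at the 2 stages, each with both MOF cKO libraries on the same side of both controls. Krt14 lay below the controls at E15.5 and above them at E16.5, with a difference between the stages of 1.25 on the log2 scale (edgeR interaction, adjusted p = 0.341). Krt77 lay above the controls at E15.5 and below them at E16.5, with a difference of -3.37 (adjusted p = 0.263, and 0.0108 by DESeq2). This holds for all gated cells. In basal-leaning cells Krt14 lay below the controls at E16.5 too (log2 fold change -0.69), and at E15.5 the groups overlapped there. Neither gene passed the edgeR test, and stage and chemistry cannot be told apart.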

How the results depend on the processing

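Of 945 alternative values for 85 results, 810 kept their direction and their side of the threshold, 30 reversed, 44 passed it newly and 3 no longer did, and 58 moved beyond the limits set; the cause was not tested. Shares and ratios tested by permutation could not pass the threshold in any setting. Their smallest permutation p is 0.333 in a stage and 0.0556 over both, so for them only a change of direction could show in these counts. The number of keratins called (0, or 1 in basal-leaning cells at E16.5) changed as follows. With DESeq2 it was 1 in gated and 1 in suprabasal-leaning cells at E15.5 (0.707% and 0.555% of genes), 2 in gated and 2 in suprabasal-leaning cells at E16.5 (6.2% and 6.23%), and 1 for the stage difference (1.91%). With no filter on low counts it was 1 in gated cells, 3 in basal-leaning and 2 in suprabasal-leaning cells at E16.5 (10.2%, 4.03% and 7.67% of genes), 1 in suprabasal-leaning cells at E15.5 (0.339%) and 1 for the stage difference (1.21%). By library size alone it was 2, 2 and 1 in gated, basal-leaning and suprabasal-leaning cells at E16.5, beside 8.35%, 3.35% and 5.19% of genes. The gate without keratins gave 1 in gated and 1 in suprabasal-leaning cells at E16.5 (6.46% and 4.83%), the gate at 50 UMIs 1 in gated cells (7.04%), and the limit of 5% mitochondrial UMIs 0 in basal-leaning cells (0.0854%). Leaving out 1 library gave 0 to 4 at E15.5 in each set of cells (4 without MOF cKO replicate 6, beside 43.8%, 45.3% and 32.2% of genes in gated, basal-leaning and suprabasal-leaning cells), 0 to 1 in gated, 0 to 3 in basal-leaning and 0 to 3 in suprabasal-leaning cells at E16.5; it gave 1 in gated cells without control replicate 1 (1.76% of genes), 3 in suprabasal-leaning cells without control replicate 1 or 2 (11% and 8.35%), 3 in basal-leaning cells without control replicate 2 (7.11%) and 0 there without MOF cKO replicate 1 or 2 (0% and 0.0102%). With the replicate block at E16.5, 1 keratin was called in gated and 1 in suprabasal-leaning cells, Krt15 in both, beside 3.96% and 5.43% of genes (log2 fold change -3.03 and -3.27, edgeR adjusted p = 0.0166 and 0.0278). Same-numbered libraries did not deviate together (r = -0.0963 over 9328 genes). The study describes pairs of samples with littermate controls, but no label ties a number to a litter. Whether the numbers pair the libraries is therefore undecided. The E15.5 groups share no numbers. At E17.5, among keratins with at least 100 UMIs, 2 were past 2-fold in the gate without keratins and 2 under 5% mitochondrial UMIs (Krt1 and Krt10 in both), all lower in QPC cKO, beside 0.714% and 6.66% of genes. In basal-leaning cells 1 (Krt1) was, beside 4.93% of genes, but at 101.8 and 43.9 CPM it lay near the 77.5 and 32.3 CPM of collagen-high cells, and no difference is read from it.

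Other settings also reversed some log2 fold changes. Krt5 at E16.5 was at 0.032 in gated cells under 5% mitochondrial UMIs, and in suprabasal-leaning cells at 0.01727 with DESeq2 size factors, 0.0172 with the DESeq2 test and 0.065 under 5% mitochondrial UMIs. The stage difference by library size alone was -0.048 for Krt5 and -0.083 for Krt1, and for Krt1 -0.044 with the gate without keratins and -0.16 with the gate at 50 UMIs. The E17.5 ratio of Krt77 was -0.014 in basal-leaning cells. The share with the suprabasal pair only differed by 0.292 over both stages at 10 UMIs per pair, and the Krt77 to Krt10 ratio by 0.0106 at E16.5 as a mean over cells.

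Leaving out 1 library also turned the direction of some values. In gated cells the log2 fold change ranged from -0.0085 to 1.90 for Krt1 and -0.37 to 1.36 for Krt10 at E15.5, and from -0.35 to 0.073 for Krt10 at E16.5. In basal-leaning cells it ranged from -0.038 to 0.62 for Krt10 at E15.5 and -0.48 to 0.19 for Krt5 at E16.5. In suprabasal-leaning cells it ranged from -0.18 to 1.36 for Krt10 at E15.5, and from -0.23 to 0.17 for Krt5 and -0.91 to 0.14 for Krt10 at E16.5. The stage difference ranged from -0.0079 to 0.58 for Krt5, -1.07 to 0.83 for Krt1 and -1.57 to 0.14 for Krt10. The share with the suprabasal pair only ranged from -1.76 to 0.0746 percentage points, the Krt5 to Krt14 ratio at E15.5 from -0.18 to 0.042 and the suprabasal to basal pair ratio over both stages from -0.14 to 0.90.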
